A study of Mus musculus with 4 samples.

Results

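The clustered protocadherins are cadherin-family proteins of the cell surface whose genes lie in 3 tandem arrays, the alpha, beta and gamma clusters, on chromosome 18 of the mouse. Members were taken by their symbols, as those listed in all 4 libraries that named an alpha, beta or gamma protocadherin followed by its number. This gave 57 genes of the 34968 symbols shared by the libraries, with 13 in the alpha cluster, 22 in the beta cluster and 22 in the gamma cluster.

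Clustered protocadherins bind the same protein on neighbouring membranes, and a neuron is known to tell its own branches from those of other neurons by the set it displays. Most promoters of the clusters are silent until a neuron opens a few of them, a choice that depends on DNA methylation, the architectural protein CTCF and cohesin. The C-type members, at the ends of the alpha and gamma clusters, escape this choice and are used more widely, and gamma protocadherins are needed for the survival of many GABAergic neurons, which release the inhibitory transmitter GABA.

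Neurons marked with tdTomato were sorted from embryoid bodies of mouse ES cells on day 12 of differentiation, in medium with XAV-939, an inhibitor of Wnt signalling, and SAG, an activator of Sonic hedgehog signalling. The parental line, Dlx6-Cre; Ai9 of strain C57/BL6, came from a male embryo, and its Cre switches on tdTomato in neurons of the subpallium. All cells carried Nestin-Nkx2-1-IRES-tTA2S, which makes Nkx2-1 and the tet activator in neural progenitors, together with a tet-responsive transgene for Dlx2 alone (the N/D line) or for Dlx2 and V5-tagged St18 (the N/D/S line). Each line was a selected clone and gave 2 libraries, so that clone and transgene cannot be told apart. The comparison is therefore between the lines and not of added St18 alone. The sources used here do not say whether the libraries of a line came from separate cultures, and p-values then measure only the spread between libraries, which may be technical.

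The authors deposited 1 value per gene symbol in each library, as TPM, an abundance divided by transcript length and scaled to the same total in each library. Read counts cannot be recovered from TPM, so the depth was unknown and no limit of detection could be given. The number of symbols above 0 was 20750 and 17118 in N/D/S replicates 1 and 2, and 13426 and 20107 in N/D replicates 1 and 2. N/D replicate 1 stood apart by this measure, and results are therefore given with and without it. St18 stood at 44.4 and 15.9 TPM in N/D/S against 28.5 and 26.6 TPM in N/D, so its RNA level did not separate the lines as labelled. The paper checked the induction by protein staining of embryoid bodies. There, St18 overlapped with V5 in N/D/S, whereas N/D had sparse St18 and no V5. Libraries are called by their labels below, and every direction between the lines rests on those labels.

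All 57 members lie on the plus strand, the alpha cluster at chr18:36930184-37187661, the beta cluster at chr18:37264938-37524479 and the gamma cluster at chr18:37661793-37841873 (GRCm38, GENCODE M21). An alpha or gamma transcript joins its own long first exon, which encodes the part outside the cell, to constant exons that all members of the cluster share and that encode the common cytoplasmic end. By the longest annotated transcript, the shared exons made up 48.6 to 54.9% of each alpha transcript and 7.10 to 45.9% of each gamma transcript (median 44.9%). The lowest of these belonged to Pcdhgc5, whose longest annotated transcript has 3 exons rather than 4. All 22 beta transcripts were single exons, with no constant part.

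Sharing of this kind limits how well a read can be given to a member. Of the stretches of 31 bases in a transcript, a median of 35.9% in alpha members, 52.6% in gamma members and 88.2% in beta members occurred in no other listed symbol. Pcdha4 was the extreme, with 2.18%, since a predicted gene that overlaps it, Gm42416, holds 44.6% of its stretches. Gm42416 had TPM of 3.07 and 0.696 in N/D/S, and of 0 and 4.59 in N/D, and how reads were split between both symbols is uncertain. Gm42416 was the listed gene outside the clusters that shared most with 26 of the members, so single values and sums over a cluster both carry this uncertainty. The shares of unique stretches count only listed symbols. Counted against all annotated symbols, they fell from 36.9 to 1.52% for Pcdha11, from 54.5 to 0.617% for Pcdhga10 and from 55.1 to 23.2% for Pcdhgc3.

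Clustered protocadherins were found in all 4 libraries, at very unequal levels. Their summed abundance was 379.7 TPM in N/D/S replicate 1, 101.5 TPM in N/D/S replicate 2, 35.3 TPM in N/D replicate 1 and 286.6 TPM in N/D replicate 2. The ranges of the lines thus overlapped, with the highest level in N/D/S and the lowest in N/D. All 57 members were above 0 in the first and the last of these libraries, against 43 members for N/D/S replicate 2 and 13 for N/D replicate 1. At least 1 TPM was reached by 50 and 27 members in the N/D/S libraries and by 5 and 41 members in the N/D libraries.

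**Figure D1:**
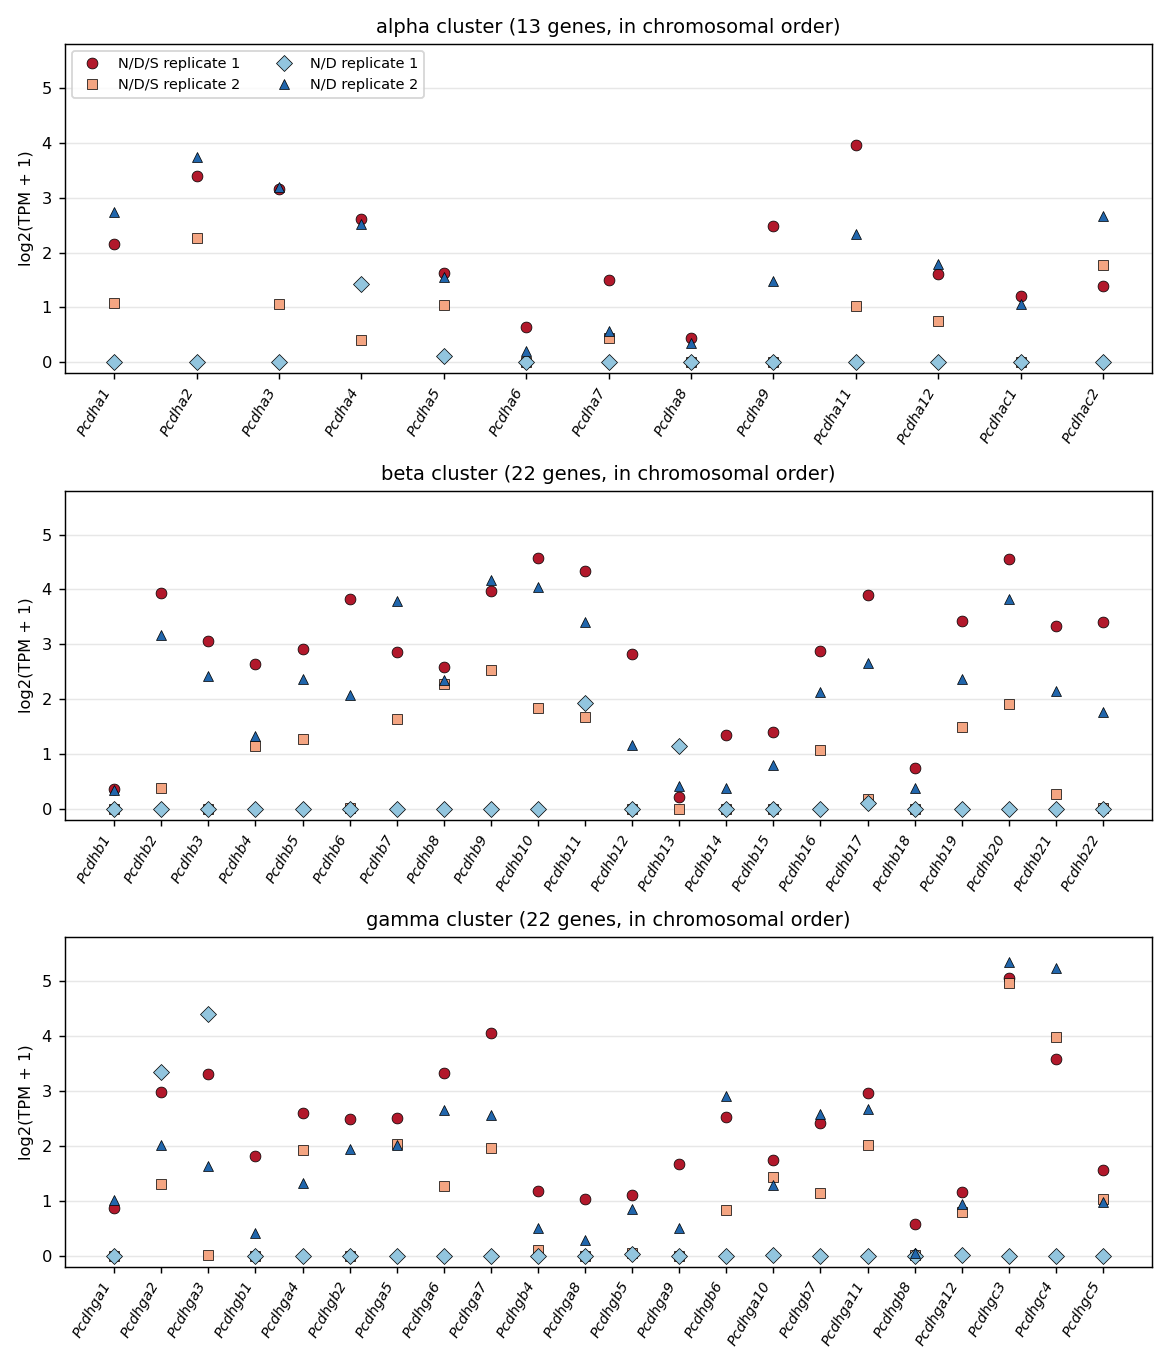
Level of each of the 57 clustered protocadherins, as log2(TPM + 1), with the genes of each cluster in the order of their starts along the chromosome and a symbol for each of the 4 libraries. N/D replicate 1 sits at 0 for most genes, where 44 of 57 members were listed at 0, while Pcdhgc3 and Pcdhgc4 stand highest in N/D replicate 2.

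The alpha cluster, whose proteins carry a cytoplasmic end that binds the WAVE complex of actin regulators, was the weakest of the 3. Its 13 members summed to 54.9 and 11.9 TPM in N/D/S replicates 1 and 2, and to 1.76 and 48.6 TPM in N/D replicates 1 and 2. N/D/S was therefore higher than N/D in replicate 1 and lower in replicate 2. The members with the highest mean outside the C-type were Pcdha2 and Pcdha11. Pcdha2 was listed at 9.50 and 3.81 TPM for N/D/S, against 0 and 12.4 TPM for N/D, with its highest and its lowest value both in N/D. Pcdha11 stood at 14.5 and 1.04 TPM in N/D/S against 0 and 4.08 TPM in N/D, so that its highest value was in N/D/S replicate 1 and the remaining N/D/S library fell between the N/D libraries. The symbol Pcdha11 has 2 gene IDs in GENCODE M21 and Pcdha10 is not among the symbols, so that the value, and the rank it gives Pcdha11 in the cluster, may hold more than 1 gene. In N/D replicate 1, 10 of the 13 alpha genes were listed at 0 and Pcdha4, with 1.68 TPM, made up 95.3% of the alpha sum. Pcdha6, Pcdha7 and Pcdha8 were low throughout, with at most 1.81 TPM in any library.

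The beta cluster, whose proteins have no constant cytoplasmic end, had the largest sum of the 3 clusters in N/D/S replicate 1 and the next largest, after gamma, in the other libraries. The 22 beta genes summed to 196.0 and 24.5 TPM in N/D/S and to 4.12 and 115.3 TPM in N/D. In N/D/S replicate 1 no beta gene dominated, and the top pair, Pcdhb10 and Pcdhb20, held 23.1% of the beta sum. Pcdhb10 had TPM of 22.9 and 2.56 in N/D/S, and of 0 and 15.4 in N/D. Pcdhb20 was listed at 22.4 and 2.76 TPM for N/D/S, against 0 and 13.2 TPM for N/D. For both genes, replicate 1 of N/D/S was the highest library, replicate 1 of N/D the lowest, and the lines overlapped. In N/D replicate 1, 17 of 22 beta genes were listed at 0, and Pcdhb11 (2.82 TPM) and Pcdhb13 (1.22 TPM) made up 97.9% of the sum. Pcdhb13 ran against the other beta genes, as it was listed at 0.160 and 0 TPM in N/D/S and at 0.337 TPM in N/D replicate 2, with its highest value in N/D replicate 1.

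The gamma cluster holds the A, B and C subgroups, which share 1 cytoplasmic end. Its 22 genes summed to 128.8 and 65.1 TPM in N/D/S and to 29.4 and 122.7 TPM in N/D, and N/D/S replicate 2 kept more of the gamma than of the beta level of N/D/S replicate 1. The 12 gamma A genes summed to 64.6 and 17.1 TPM in N/D/S and to 29.4 and 29.2 TPM in N/D. The 7 gamma B genes summed to 19.1 and 2.09 TPM in N/D/S and to 0.0143 and 15.9 TPM in N/D. Pcdhga7 stood at 15.6 and 2.91 TPM in N/D/S against 0 and 4.92 TPM in N/D. Pcdhgb6 and Pcdhgb7 were the highest of the B subgroup. Pcdhgb6 had TPM of 4.73 and 0.768 in N/D/S, and of 0 and 6.49 in N/D, and Pcdhgb7 was listed at 4.36 and 1.20 TPM for N/D/S, against 0 and 4.97 TPM for N/D. Both had their highest and their lowest value in N/D.

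Pcdhga3 and its neighbour Pcdhga2 had their highest values in N/D replicate 1, where most members were listed at 0, and kept the order of Pcdhga7 among the other 3 libraries. Pcdhga3 stood at 8.87 and 0.00883 TPM in N/D/S against 20.2 and 2.11 TPM in N/D. Pcdhga2 had TPM of 6.93 and 1.47 in N/D/S, and of 9.19 and 3.06 in N/D. Together they made up 83.2% of all clustered protocadherin TPM in N/D replicate 1, where the next members were Pcdhb11, Pcdha4 and Pcdhb13. No further member reached 0.1 TPM in that library. Pcdhga2 and Pcdhga3 are the second and the third gene of the gamma cluster, and 53.0 and 52.1% of their stretches of 31 bases were found in no other listed symbol.

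**Figure D2:**
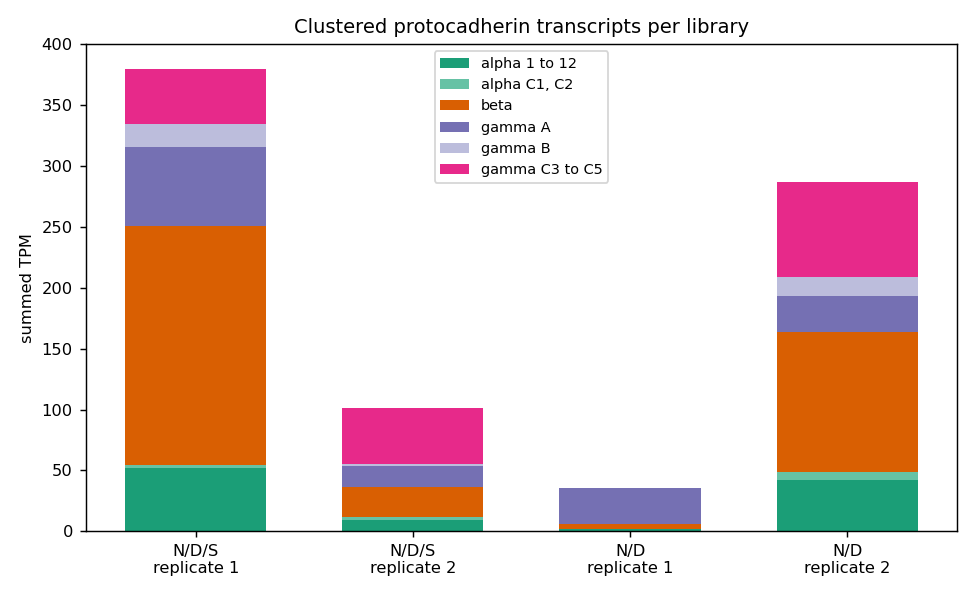
Summed TPM of the clustered protocadherins in each of the 4 libraries, as stacked bars from 0, divided into the alpha, beta and gamma subgroups. The gamma C bar is 45.2 TPM in N/D/S replicate 1 and 45.9 TPM in N/D/S replicate 2, while the beta bar is 196.0 and 24.5 TPM in the same libraries.

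The 5 C-type genes summed to 48.1 TPM in N/D/S replicate 1, 48.4 TPM in N/D/S replicate 2 and 84.0 TPM in N/D replicate 2, and all 5 were listed at 0 in N/D replicate 1. All of the 52 other members were higher in N/D/S replicate 1 than in N/D/S replicate 2, as were 3 of the 5 C-type genes (Pcdhgc3, Pcdhac1 and Pcdhgc5). Their groups were 5.47-fold (alpha 1 to 12), 8.01-fold (beta), 3.78-fold (gamma A) and 9.14-fold (gamma B) higher by summed TPM, against 0.994-fold for the C-type genes, a sum made up mostly of Pcdhgc3 and Pcdhgc4. The share of all clustered protocadherin TPM from C-type genes was 12.7 and 47.7% for N/D/S replicates 1 and 2, against 29.3% for N/D replicate 2. These values compare single libraries and have no replicate check, and the difference between the subgroups was not tested. Across all tested genes, 73.2% were likewise higher in N/D/S replicate 1 than in N/D/S replicate 2, with a median log2 difference of 0.69, against 39 of 41 tested members (95.1%) with a median of 1.70.

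Pcdhgc3 and Pcdhgc4 carried most of the C-type level, 89.9 to 92.8% of it in the 3 libraries where it was above 0. Pcdhgc3, which acts in dendrite arborization, was listed at 32.3 and 30.1 TPM for N/D/S, against 0 and 39.9 TPM for N/D. It was the highest member in every library but N/D replicate 1, and those 3 values lay within 10 TPM of each other. Pcdhgc4, which is needed for the survival of GABAergic interneurons, stood at 10.9 and 14.8 TPM in N/D/S against 0 and 36.7 TPM in N/D. Its N/D values lay on both sides of its N/D/S values. Pcdhac2, which acts in axon tiling of serotonergic neurons, had TPM of 1.62 and 2.43 in N/D/S, and of 0 and 5.35 in N/D, the same order as Pcdhgc4. Pcdhac1 and Pcdhgc5 were low and did not keep their level in N/D/S replicate 2. Pcdhac1 was listed at 1.31 and 0 TPM for N/D/S, against 0 and 1.09 TPM for N/D. Pcdhgc5 stood at 1.94 and 1.05 TPM in N/D/S against 0 and 0.955 TPM in N/D, and its N/D/S libraries were both above its N/D libraries.

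Between N/D replicate 2 and N/D/S replicate 1, the libraries in which all members were above 0, the members as a whole resembled each other most. Across the 57 members Pearson's r of log2(TPM + 1) was 0.83 and Spearman's rho was 0.82. The alpha cluster taken alone was closer between both replicate 2 libraries, with an r of 0.82 against 0.77, and so was the gamma cluster by r, 0.87 against 0.85, though not by rho. Over all 57 members the r was 0.78 between both replicate 2 libraries, 0.57 between both N/D/S libraries and 0.01 between both N/D libraries. Members share exons and libraries and are not independent replicates, and over all tested genes the r of these pairs, in the same order, was 0.95, 0.93, 0.88 and 0.75. Of the 52 members outside the C-type, 42 were higher in N/D/S replicate 1 than in N/D replicate 2. Summed TPM was 1.70-fold higher for beta and 2.21-fold higher for gamma A in N/D/S replicate 1, whereas that of the gamma C genes was 0.583-fold that of N/D replicate 2.

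**Figure D3:**
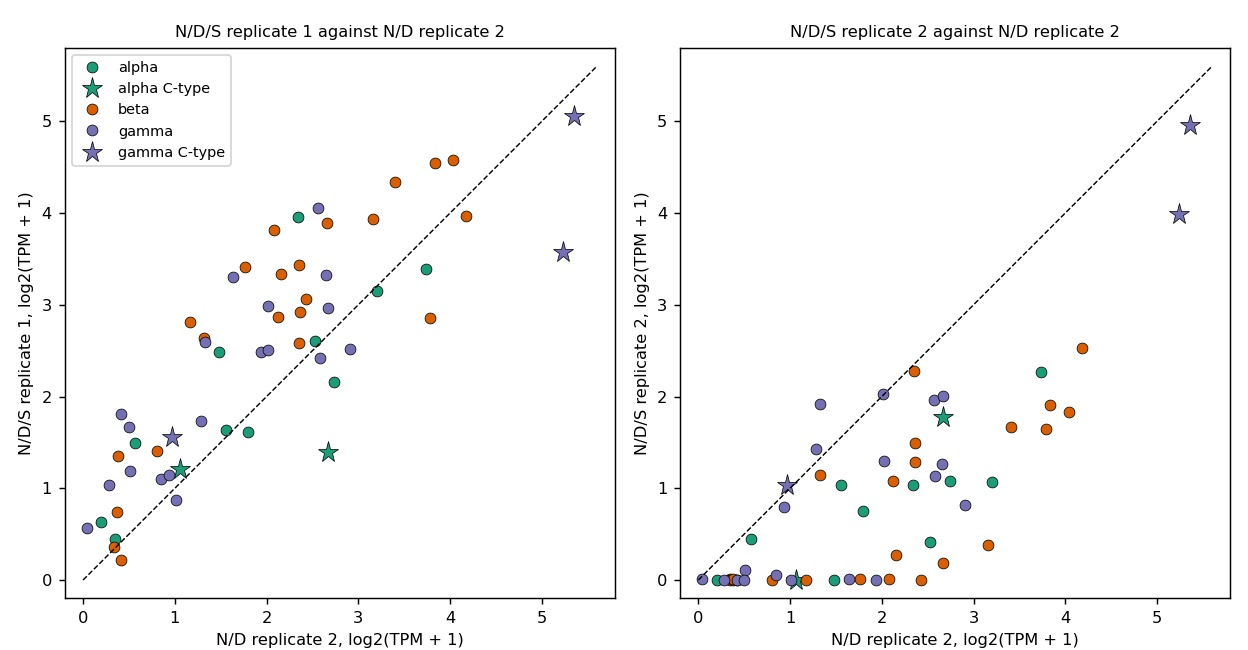
Level of each clustered protocadherin in each N/D/S library (vertical axis) against N/D replicate 2 (horizontal axis), both as log2(TPM + 1), with stars for C-type genes and a dashed line where both are equal. In the left panel 44 of 57 members lie above the line, and in the right panel 53 lie below it.

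No clustered protocadherin passed the test for a difference between the lines. The comparison of N/D/S with N/D used limma on log2(TPM + 1), fitted to the 12975 genes that reached 1 TPM in 2 or more libraries, which included 41 members (10 alpha, 17 beta and 14 gamma). With an adjusted p under 0.05 (limma with Benjamini-Hochberg adjustment over all tested genes), 0 of 41 members were called, and the background was likewise 0.0% of the tested genes. At an unadjusted p under 0.05 there were 0 members and 8 of all tested genes, or 0.0617%. Since the test called no gene at all, the lack of calls among members does not show equal levels. The 16 members left out of the test did not exceed 2.50 TPM (Pcdhgb1) in any library, and 12 of them were listed at 0 in N/D replicate 1.

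The size of the differences was below the spread between libraries of a line for most members. The residual SD of the tested members was between 0.55 and 2.68 on the log2 scale with a median of 1.52, against a median of 1.03 for all tested genes, and 34 of the 41 differences were smaller than the SD of their own gene. Among the named genes, the largest log2 difference between the lines (N/D/S minus N/D) was that of Pcdhgc3, 2.33 with a standard error (SE) of 1.72. It was 1.16 (SE 1.69) for Pcdhgc4, 0.81 (SE 1.00) for Pcdhgc5, 0.25 (SE 1.19) for Pcdhac2 and 0.07 (SE 1.05) for Pcdhac1. For the genes highest in their groups it was 0.96 (SE 1.41) for Pcdha2, 1.32 (SE 1.38) for Pcdha11, 1.19 (SE 1.61) for Pcdhb10 and 1.31 (SE 1.57) for Pcdhb20. In the gamma A and B subgroups it was 1.73 (SE 1.30) for Pcdhga7, −1.36 (SE 1.49) for Pcdhga3, 0.22 (SE 1.31) for Pcdhgb6 and 0.49 (SE 1.23) for Pcdhgb7. All of these had an adjusted p of 1.00 (limma with Benjamini-Hochberg adjustment, 2 libraries per line). A two-sided exact permutation test of 2 libraries against 2 cannot give a p below 0.333.

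The direction of the differences depended on N/D replicate 1. Of the 41 tested members, 38 had a positive log2 difference and 3 a negative one, where 61.4% of all tested genes were positive. Without N/D replicate 1, 12 were positive and 29 negative, where 29.0% of all tested genes were positive. Over all members, tested or not, the median log2 difference was 0.28 in the alpha, 0.78 in the beta and 0.54 in the gamma cluster, and it was −0.46, −0.22 and 0.08 without that library. The median of all tested genes moved from 0.26 to −0.29 by the same step. By name, Pcdhgc3 went from 2.33 to −0.35, Pcdhgc4 from 1.16 to −1.45, Pcdhb10 from 1.19 to −0.83 and Pcdhb20 from 1.31 to −0.60, while Pcdhga7 went from 1.73 to 0.44.

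The lines differed in opposite directions within the replicate numbers. Between the replicate 1 libraries, 54 of 57 members were higher in N/D/S, with a median log2 difference of 2.48. Those lower in N/D/S were Pcdhb13, Pcdhga2 and Pcdhga3. Between the replicate 2 libraries, 53 of 57 members were lower in N/D/S, with a median log2 difference of −1.02. The 4 members that were higher there, Pcdhga4, Pcdhga5, Pcdhga10 and Pcdhgc5, all belong to the gamma cluster. All tested genes split in the same directions, with 72.5% higher in N/D/S in replicate 1 (median 1.14) and 74.7% lower in replicate 2 (median −0.62). All 13 alpha and all 22 beta members were lower in N/D/S in replicate 2, against 18 of 22 gamma members.

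**Figure D4:**
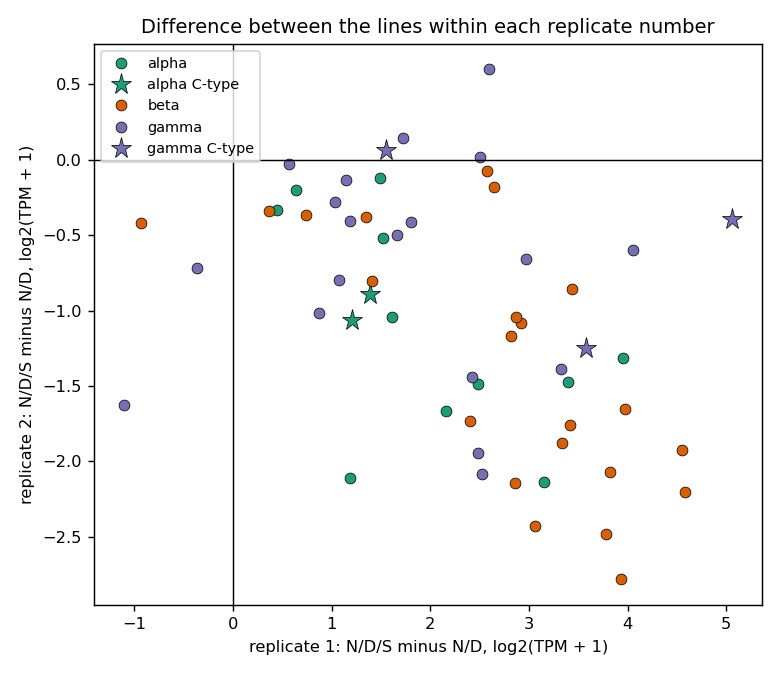
Log2 difference of N/D/S minus N/D, on the log2(TPM + 1) scale, between the replicate 1 libraries (horizontal axis) and between the replicate 2 libraries (vertical axis), with a point for each of the 57 clustered protocadherins. Most points lie in the lower right, where N/D/S was higher in replicate 1 and lower in replicate 2, and 4 gamma genes lie above the horizontal line.

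In both N/D/S libraries, 4 tested members were above both N/D libraries, and no tested member was below both. These 4 are 9.76% of the 41 tested members, where 8.69% of all tested genes were above and 8.23% were below, so that the share of members was near the background. The member with the largest log2 difference among them was Pcdhga4, with 5.05 and 2.79 TPM in N/D/S against 0 and 1.51 TPM in N/D, and a log2 difference of 1.60. Pcdhga5 had TPM of 4.68 and 3.07 in N/D/S, and of 0 and 3.03 in N/D, so that N/D/S replicate 2 was barely above N/D replicate 2. Pcdhga10 was listed at 2.33 and 1.69 TPM for N/D/S, against 0.00745 and 1.44 TPM for N/D. Together with Pcdhgc5, these genes were separated by small steps at low levels.

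Many clustered protocadherins that the other libraries held had a value of 0 in N/D replicate 1. Among 26 members that reached 1 TPM in every other library, 21 were listed at 0 in N/D replicate 1 (80.8%) and 24 were under 0.1 TPM. Of the 6639 symbols that did so and had a mean there in the same range, 1.70 to 34.1 TPM, 32.3% were listed at 0, though levels within that range were not matched. Counted in the same way, no member was listed at 0 in the other libraries alone, of 2 members eligible for N/D/S replicate 1, 4 eligible for N/D/S replicate 2 and 2 eligible for N/D replicate 2. These counts needed 1 TPM in N/D replicate 1, which 5 of 57 members reached, so they could hardly find a 0. Without that requirement, 14 members were listed at 0 in N/D/S replicate 2. A value of 0 here can be a failed estimate, and neither the difference in frequency nor the part of the shared exons in it was tested.

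Genes known to govern promoter choice in the clusters were present in the neurons. Of 24 regulators listed and tested, 0 were called, 1 was higher in both N/D/S libraries (Setdb1, a histone methyltransferase that represses these clusters) and 3 were lower in both (Ctcf, Stag2 and Nipbl, of CTCF and the cohesin machinery), where 8.69% of all tested genes were higher and 8.23% lower in both. Ctcf stood at 98.8 and 38.1 TPM in N/D/S against 101.5 and 111.3 TPM in N/D, so that its lowest value was in N/D/S replicate 2 and the other 3 values lay close together. Stag2 had TPM of 9.76 and 8.35 in N/D/S, and of 27.4 and 19.9 in N/D, and Nipbl was listed at 5.06 and 1.02 TPM for N/D/S, against 8.50 and 6.30 TPM for N/D. Setdb1 stood at 27.9 and 17.0 TPM in N/D/S against 0.0430 and 16.5 TPM in N/D, where the value of N/D replicate 2 was close to that of N/D/S replicate 2. Dnmt3b, which methylates promoters of the clusters, had TPM of 0.623 and 2.55 in N/D/S, and of 0 and 4.59 in N/D. The median log2 difference of the 24 regulators was 0.05, and −0.66 without N/D replicate 1.

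Partners of the proteins gave a similar picture. Of 20 genes listed for kinases, the WAVE complex and other partners, 19 were tested and 0 were called. Kif5b, a kinesin heavy chain that carries cargo along microtubules, was lower in both N/D/S libraries, with 54.4 and 19.1 TPM against 66.7 and 72.6 TPM, the only gene of the 19 that was separated in this direction. Axin1, a scaffold of Wnt signalling that binds Pcdhgc3, was listed at 28.1 and 11.6 TPM for N/D/S, against 0 and 24.6 TPM for N/D. The median log2 difference of the 19 partners was 0.42, and −0.27 without N/D replicate 1. Of the 9 genes beside or between the clusters, 8 were tested, 0 were called and 3 were lower in both N/D/S libraries (Zmat2, Wdr55 and Taf7), where 8.23% of all tested genes were lower in both. Taf7, a general transcription factor subunit whose gene lies between the beta and gamma clusters, stood at 22.5 and 14.3 TPM in N/D/S against 25.1 and 24.5 TPM in N/D. Its N/D replicate 1 value was thus as high as that of N/D replicate 2, but 3 of the 9 neighbours were listed at 0 in N/D replicate 1, namely Dnd1, Diaph1 and Slc25a2, which did not exceed 3.71 TPM in any library.

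The nonclustered delta protocadherins, related cadherins encoded elsewhere in the genome, were divided in N/D replicate 1. The 10 genes listed summed to 167.0 and 49.0 TPM in N/D/S and to 85.1 and 118.8 TPM in N/D, and 3 of 10 were listed at 0 in N/D replicate 1, against 44 of the 57 clustered members. Of the 10, 4 (Pcdh1, Pcdh7, Pcdh11x and Pcdh17) were higher in N/D replicate 1 than in N/D replicate 2 and carried most of its sum, and 6 were lower. None was called, and the median log2 difference was 0.07, or −0.72 without N/D replicate 1. Pcdh11x was highest in N/D replicate 1, with 35.9 TPM, whereas Pcdh8 was listed at 0 there and had 50.6 TPM in N/D replicate 2. The difference between the clustered and the nonclustered genes was not tested.

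Markers of cell types differed between the libraries. The 6 neuronal markers were above 0 in all libraries, with sums of 4647 and 3258 TPM in N/D/S against 4061 and 2962 TPM in N/D, carried mostly by Tubb3 and Stmn2. All of them but Tubb3 were lowest in N/D/S replicate 2. Dcx stood at 17.9 TPM there against 122.5 TPM in N/D/S replicate 1, and Map2 at 80.5 against 361.3 TPM. The summed clusters were lowest in another library, N/D replicate 1. The 10 markers of GABAergic and medial ganglionic eminence neurons were all above 0, with sums of 1619 and 666.0 TPM in N/D/S against 655 and 1384 TPM in N/D, where the 2 lower libraries were close to each other and single genes, such as Gad1 and Gad2, had other orders. The 8 progenitor markers summed to 504.9 and 704.0 TPM in N/D/S and to 463.2 and 1213 TPM in N/D, mostly Fabp7 in the replicate 2 libraries (505.6 and 906.5 TPM), with Hes5 and Mki67 listed at 0 in N/D replicate 1. The 5 markers of pluripotent cells, of which Dppa5a carried most of the level, summed to 3.60 and 292.4 TPM in N/D/S and to 0.247 and 184.3 TPM in N/D, so the replicate 2 libraries held most of this RNA, and 4 of the 5 were listed at 0 in N/D replicate 1. The 7 markers of astrocytes and oligodendrocytes summed to 18.1 and 52.2 TPM in N/D/S and to 0 and 157.6 TPM in N/D, where all 7 were listed at 0 in N/D replicate 1, as the C-type genes were. The 4 glutamatergic markers summed to 19.0 and 1.27 TPM in N/D/S and to 17.3 and 3.17 TPM in N/D, and the 5 markers of mesenchyme and endothelium to 7.58 and 26.4 TPM and to 38.8 and 27.3 TPM, where the level of N/D replicate 1 was almost all Pecam1, of endothelium, and Col3a1 was listed at 0. The 3 microglial markers did not exceed a sum of 1.36 TPM in any library. In bulk samples of sorted cells, fewer cells of a type and less RNA per cell cannot be told apart, and the part of these cell types in the levels of the clusters was not tested.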

How the data were processed

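Sorted tdTomato+ neurons (day 12) of N/D/S and N/D cells were measured by poly-A RNA-seq, with 2 libraries each, grouped by their titles. According to the methods and the submitters' processing notes, the authors pseudoaligned reads with kallisto 0.44.0 and named sleuth and GRCm38; the transcriptome release, any use of strand and the summing of transcripts into genes are not given in the sources used here. The authors deposited TPM per gene symbol, which keep no counts, so depth and precision per library are unknown.

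The 4 files were joined on symbol, and 24 symbols turned into dates were left out. Sleuth needs kallisto output that TPM tables do not hold, so differences were fitted with limma 3.58.1 in R 4.3.3 on log2(TPM + 1) for genes with at least 1 TPM in 2 or more libraries, with Benjamini-Hochberg adjustment, a threshold of 0.05 and no covariates. A fold change on this scale understates that of low genes. For standard errors and p-values, limma drew the variance of each gene towards that of all genes. Pcdhgc5, with a residual SD of 0.55, thus had an SE of 1.00. The fit was tested on simulated data, where it called the changed genes at a small spread between libraries but not at the spread observed here. Sums used all members. Positions, exons and stretches of 31 bases came from GENCODE M21, using Python 3.11.15 with pandas 2.3.3 and numpy 2.4.6, and figures with matplotlib 3.10.9.

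Members and gene lists were chosen with earlier results of these data known. Named with full statistics were the 5 C-type genes and the 2 members of highest mean TPM in the alpha, beta, gamma A and gamma B groups; described without a test was, per cluster and direction, the non-overlapping tested member of largest difference. Other members were named where a count of 5 or fewer was given or, as Pcdha6, Pcdha7, Pcdha8, Pcdhb11, Pcdhb13, Pcdha4, Pcdhga2 and genes of the lists, after their values were seen. Alternatives were other pseudocounts (0.1 and 0.5), filters, scalings, a variance trend, a replicate block and each library left out.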

Additional observations from a re-analysis of the deposited data

How the results depend on the processing

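Of 21 results under their alternatives, 205 of 235 values kept their sign and call, or moved within the spread of the libraries. The genes called rose from 0 to 6 with a variance trend (5 higher, 1 lower). Leaving out a library gave 0 to 2373 called genes and 0 to 6 called members. The upper ends came without N/D replicate 2 (2213 genes higher, 160 lower), where N/D replicate 1 stands alone and is assumed to vary like the N/D/S libraries, and the members were Pcdhb9, Pcdhb10, Pcdhb20, Pcdhga7, Pcdhgc3 and Pcdhgc4, all listed at 0 in that library. The number at an unadjusted p under 0.05 was 8 in the fit reported and 3 to 3789 under the alternatives.

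The median log2 difference of the gamma members was 0.95 among those tested, 2.35 with a pseudocount of 0.1 (1.42 for alpha from 0.39, and 1.72 for beta from 0.87) and −0.54 where at least 1 TPM was required in every library, which left Pcdhga2 alone. With that filter Pcdhb11 was the only beta and no alpha member was left, so most named members had no value. Leaving out each library gave log2 ratios of summed TPM of −1.08 to 4.24 for alpha (0.41 with all), −1.29 to 4.74 for beta (0.88) and −0.34 to 1.72 for gamma (0.35), each highest without N/D replicate 2, and medians of −0.76 to 1.41 for alpha, −0.35 to 2.23 for beta and −0.08 to 2.02 for gamma.

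The log2 differences that changed sign did so only when a library was left out. They ranged from −0.53 to 0.68 for Pcdhac1, −1.08 to 1.58 for Pcdhac2, −0.35 to 5.01 for Pcdhgc3, −1.45 to 3.78 for Pcdhgc4, −0.91 to 2.83 for Pcdha2 and −0.14 to 2.78 for Pcdha11. For the others they ranged from −0.83 to 3.21 for Pcdhb10, −0.60 to 3.23 for Pcdhb20, −3.01 to 0.28 for Pcdhga3, −1.24 to 1.67 for Pcdhgb6 and −0.80 to 1.78 for Pcdhgb7. Pcdhga7 (0.44 to 3.01) and Pcdhgc5 (0.33 to 1.29) kept their sign, and a pseudocount of 0.1 gave 3.28 and 2.23 for them. With the replicate block, 0 genes and 0 members were called, 9 genes had an unadjusted p under 0.05, and the standard error rose for 10 of the 13 named members (from 1.38 to 1.57 for Pcdha11) and fell for Pcdhgc3 (1.59), Pcdhgc4 (1.53) and Pcdhga3 (1.27). Same-numbered libraries had a deviation correlation of 0.02 across genes, the labels name nothing else that they share, and they were not treated as pairs. The depth of the libraries is unknown.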
